A study of Mus musculus with 4 samples.

Results

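The genes described here encode the splicing machinery and the RNA-binding proteins that steer it: 60 protein-coding genes of the mouse autosomes, out of 21418 such genes in all. Members were taken by symbol, as every gene whose name began with Hnrnp, Srsf, Sf3a, Sf3b, Prpf or 1 of the 7 prefixes from Snrpa to Snrpg, and they lay on 17 chromosomes. Hnrnph2, on the X chromosome, was outside the rule. By protein family there were 17 heterogeneous nuclear ribonucleoproteins (hnRNPs), 11 serine/arginine-rich (SR) proteins, 13 Prp factors, 7 Sm proteins, 5 SF3b subunits, 4 proteins specific to the U1 and U2 particles, and 3 SF3a subunits.

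The data are chromatin immunoprecipitations followed by sequencing (ChIP-seq) of H3K9me3 and H3K36me3, histone H3 trimethylated at either of these lysines, in mouse embryonic stem (ES) cells. The cells were wild type (WT) of strain 129S1/SvImJ, or ES cells of the same strain with a targeted H3.3 G34R mutation, all at passages < 20. H3.3 is a histone H3 variant that 2 genes, H3f3a and H3f3b, encode, and the mutation puts arginine in place of a glycine close to the lysine that H3K36me3 marks. In the mutant cells, 1 copy of H3f3a carried the substitution under its own promoter after Cre recombination, and the remaining H3f3a copy and both copies of H3f3b stayed WT. Each of the 4 combinations of cells and mark is 1 library, and which mutant clone gave the libraries is not given in the sources used here. The labels do not set apart further cultures, and the region lists hold no expression values, so the ES cell identity was not checked against marker genes.

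What is analysed is 1 list of enriched regions per mark, with positions only. A region was listed where the mark was high in WT or in G34R cells, so each list joins both cell types and no difference between WT and G34R cells could be measured in any gene. There are 31593 entries in the H3K36me3 list, typically 1000 bp wide (median), and 32502 in the H3K9me3 list (median 800 bp). As the lists carry no read values, the depth behind a region is unknown, and a gene without a region is not shown to lack the mark, because bins under the threshold, merged regions under the minimum width and regions with extreme counts were dropped before deposit. Since the authors kept only bins inside annotated genes, nothing can be read about flanking sequence.

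Splicing removes introns from the primary transcript while it is being made. The U1 particle pairs with the 5′ splice site, and the U2 particle, which holds SF3a and SF3b, is placed at the branch point. The U4/U6.U5 tri-snRNP, of which several Prp factors are part, then joins to form the active spliceosome. The Sm proteins form the ring around the RNA of most of these particles, whereas SR proteins and hnRNPs bind exons and introns and shift which splice sites are used. H3K36me3 is laid down along transcribed gene bodies by SETD2, which travels with elongating RNA polymerase II, and is typically higher towards the 3′ end. H3K9me3 is the mark of constitutive heterochromatin and of silenced repeats, and is found at part of the zinc finger genes.

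H3K36me3 was listed in nearly every splicing gene and H3K9me3 in few. In total, 57 of the 60 members held at least 1 H3K36me3 region (95%, with a 95% Wilson interval of 86.3 to 98.3), against 35.2% of all autosomal protein-coding genes. Sf3b5 and Srsf12 were among the 3 exceptions. H3K9me3 was listed in 9 members (15.0%, 8.10 to 26.1), against 41.4% of all genes. Both marks occurred in 8 members (13.3%, 6.91 to 24.2), a share close to the 12.6% of all genes. Among carriers of H3K36me3 the counts were unlike, with both marks in 8 of 57 members and in 2692 of 7539 of all genes. With regions of at least 1 kb only, H3K9me3 was left in 3.33% of the members, against 25.5% of all genes, and both marks in 1.67%, against 5.78%. H3K9me3 within 1 kb of the gene start was found in 3 members (5.00%, 1.71 to 13.7), against 19.7%. This share of members was 1.67% with a window of 500 bp or with regions that touch 1 gene only. It was 0% with regions of at least 1 kb, and 8.33% with a window of 2 kb. No share of all genes is given under these settings, and the 19.7% is for the 1 kb window with all regions. The regions of Prpf6 and Srsf1 also touch Znf512b and Gm11508. The intervals treat genes as independent draws and cover counting error only, and no p-value is given because genes are not replicates.

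In most members the mark covered a large part of the gene. H3K36me3 took up a median of 60.9% of the gene length over all 60 members (95% order-statistic interval 47.5 to 73.5), and 62.8% over the 57 that carried it, where the median over all carriers in the genome was 27.8%. At least 50% of the length was covered in 37 members (61.7%), against 10.0% of all genes. With the sequence of all members pooled, 50.3% lay in H3K36me3 and 0.723% in H3K9me3, against 5.96% and 3.52% over all genes. Carriers ranged from 11.7% in Hnrnpd to 95.3% in Sf3b3, with 13 members at 80% or more and 9 carriers under 25%. The plot of covered share by gene shows high and low values side by side in the hnRNP, SR, Sm and Prp families.

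**Figure D1:**
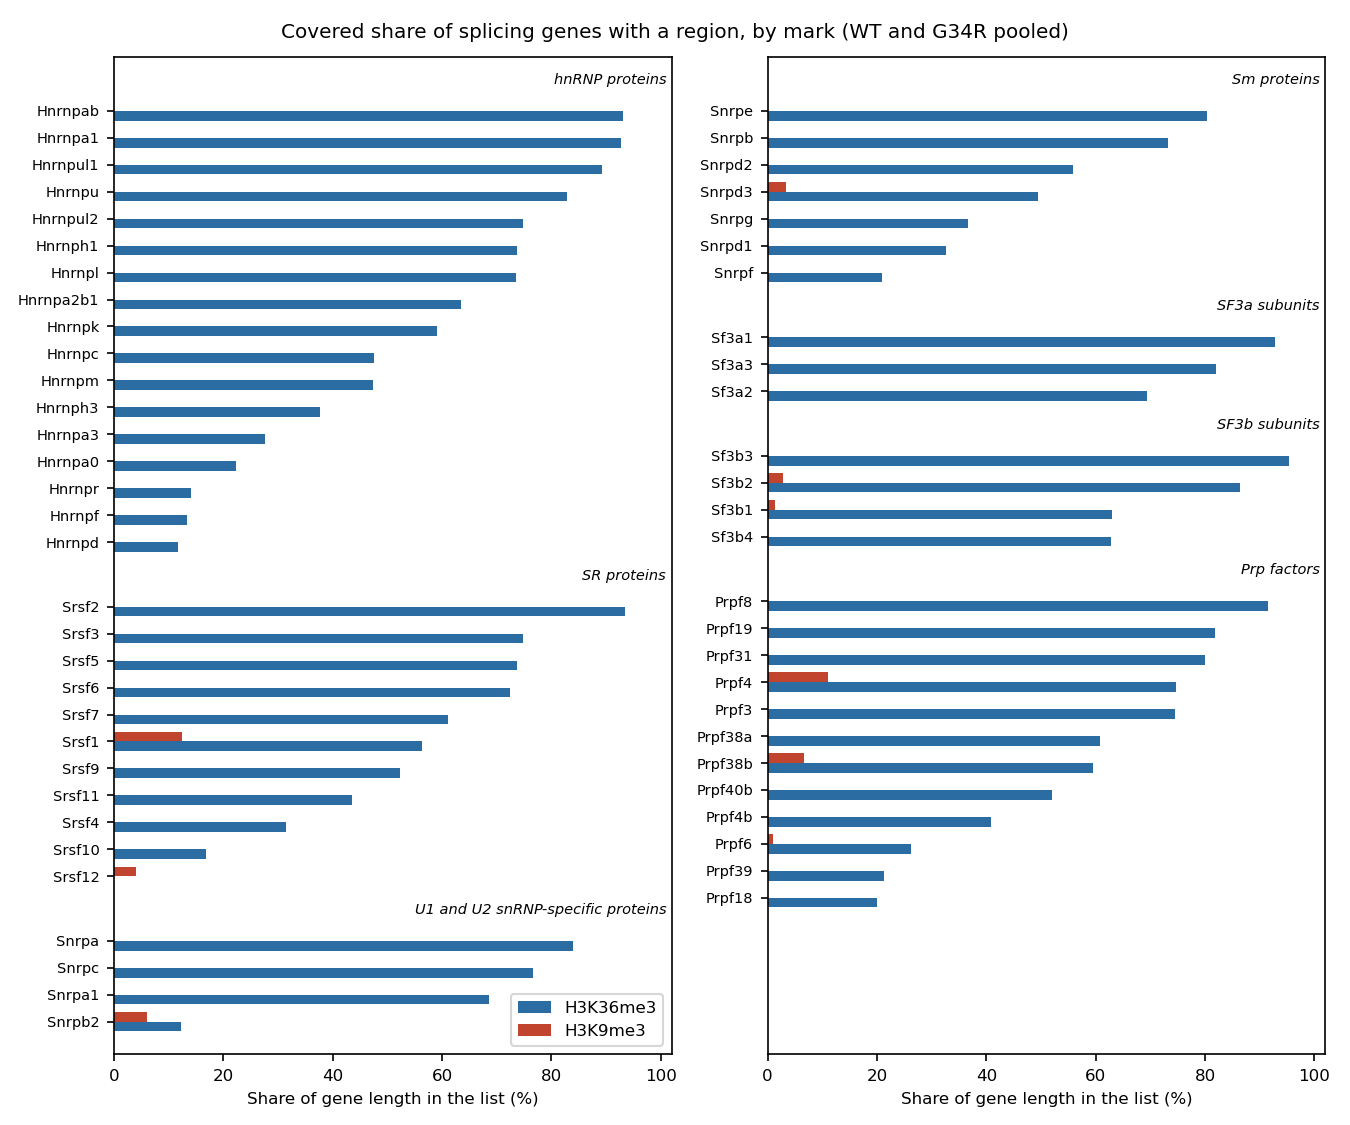
Share of the annotated gene length (%) in the H3K36me3 list (blue) and the H3K9me3 list (red) for each of the 58 splicing genes with at least 1 region of either mark, grouped by protein family and sorted by H3K36me3. Each bar is 1 gene in the pooled WT and G34R list, with no error bar because there is 1 list per mark. H3K36me3 bars reach from 0 to 95.3% and no H3K9me3 bar passes 12.5%.

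Carriage of H3K36me3 was above that of all genes in every class of gene length. H3K36me3 was listed in 4 of 5 members under 5 kb, 18 of 18 members of 5 to 10 kb, 16 of 16 of 10 to 20 kb and 19 of 21 of 20 kb or more. In the same classes 13.1%, 37.5%, 46.7% and 43.1% of all genes carried it. For H3K9me3 the counts were 0 of 5, 3 of 18, 2 of 16 and 4 of 21, against 18%, 29.9%, 34.6% and 61.6% of all genes. The Wilson interval of the members lay above the share of all genes for H3K36me3 in all 4 classes. For H3K9me3 it lay below that share only at 20 kb or more (19%, 7.67 to 40), so in the shorter classes a lower share of H3K9me3 was not detectable with these numbers of genes. Across the 60 members the Spearman correlation of length with the covered share was -0.15, and with the covered length it was 0.61, given as a description of genes that share the same libraries.

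**Figure D2:**
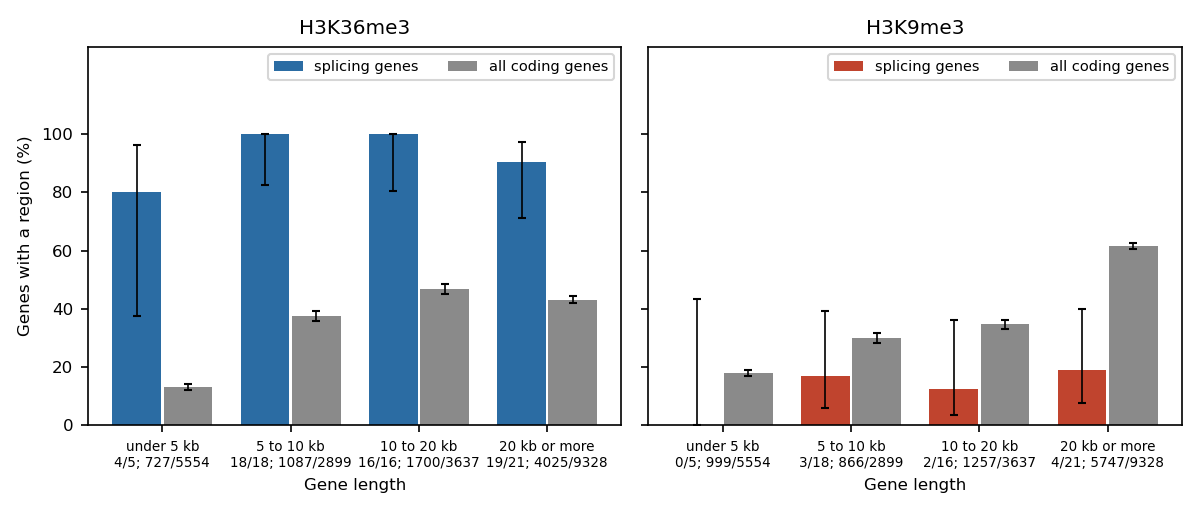
Share of genes (%) with at least 1 H3K36me3 region (left) or H3K9me3 region (right), for splicing genes (coloured) and all autosomal protein-coding genes (grey) in 4 classes of gene length, with the number of genes that carried the mark over the number in the class under each pair. Bars start at 0 and error lines are 95% Wilson intervals. H3K36me3 reached 100% of the members in the classes of 5 to 10 and 10 to 20 kb.

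The hnRNPs coat nascent transcripts and act in splicing, export and stability. All 17 carried H3K36me3, with a median covered share of 59.0%, and 0 carried H3K9me3. Covered shares ranged widely within the family. Hnrnpab (chr11:51412372-51420349), an A/B-type hnRNP, was covered over 93.1% of 7.98 kb, by a single region of 19800 bp that ran on into the neighbouring gene Agxt2l2. Hnrnpa1 (chr15:103070945-103074445), the classical antagonist of SR proteins at splice sites, was covered over 92.7% of 3.50 kb by 2 regions. Hnrnpul1 (chr7:26506517-26539749), related to the nuclear matrix protein hnRNP U, was covered over 89.3% of 33.2 kb, a total of 29684 bp in 4 regions. At the other end, Hnrnpd (chr5:100387445-100407957), which encodes the AU-rich element binding protein AUF1, had 2 regions over 11.7% of 20.5 kb. Hnrnpf (chr6:117850358-117875639), a binder of G-rich RNA, was covered over 13.4% of 25.3 kb. Hnrnpr (chr4:135866857-135896596) had 6 regions that together took up only 14.1% of 29.7 kb, none wider than 1000 bp.

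The SR proteins bind exonic enhancers through RNA recognition motifs and recruit the U1 and U2 particles. H3K36me3 was listed in 10 of 11, with a median covered share of 56.4% over the family. Srsf2 (chr11:116711215-116714408), also known as SC35, was covered over 93.5% of 3.19 kb, from 208 bp after its start to its end, by a single region that also touches Mfsd11 and 1110005A03Rik. Srsf10 (chr4:135411662-135425823), which represses splicing when dephosphorylated, was covered over 16.9% of 14.2 kb. Srsf12 (chr4:33295966-33320315) was the only SR gene without H3K36me3 and the only member with H3K9me3 alone, and its nearest H3K36me3 region lay 12.5 kb away at Pnrc1. Srsf1 (chr11:87860875-87867257), the founding SR protein SF2/ASF, held both marks, with 56.4% of its 6.38 kb in H3K36me3 and 12.5% in H3K9me3, the largest H3K9me3 share among the members.

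The H3K9me3 region of Srsf1 spanned chr11:87861201-87862000, from 326 to 1125 bp after the gene start. Its centre lay in intron 1, it took in 343 bp of exon (203 bp coding and 140 bp untranslated), and its last 400 bp were also in the H3K36me3 list. A 200 bp bin of it, chr11:87861401-87861600, is printed because it held the most CG of the printed H3K9me3 bins, which were chosen free of untranslated sequence. It is given 5′ to 3′ on the gene's strand, the plus strand of NCBIM37, with every CG in capitals, and it holds 24 of them.
Srsf1 H3K9me3 bin: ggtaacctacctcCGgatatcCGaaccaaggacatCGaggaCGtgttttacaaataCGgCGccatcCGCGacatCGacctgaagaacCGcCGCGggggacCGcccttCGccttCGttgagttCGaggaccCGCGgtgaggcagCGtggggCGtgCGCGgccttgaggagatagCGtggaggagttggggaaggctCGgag
The motif searched was CG, which reads the same on both strands. It was present in 75.8% of all 5184 bins of 200 bp that lie in members, and 11.3% of them held 6 or more. In this bin the G+C content was 63.0%, and over the whole 800 bp region there were 91 CG at a ratio of observed to expected of 0.993.

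The Sm proteins B, D1, D2, D3, E, F and G form the heteroheptameric ring of the spliceosomal particles. The ring takes 1 copy of each, but the mark differed widely between their genes. All 7 genes carried H3K36me3, at 80.3% for Snrpe, 73.2% for Snrpb, 55.9% for Snrpd2, 49.4% for Snrpd3, 36.6% for Snrpg, 32.6% for Snrpd1 and 21.0% for Snrpf. The lowest of these, Snrpf (chr10:93045774-93052451), had a single region of 1400 bp in 6.68 kb, and overlaps Ccdc38. Snrpd3 (chr10:74980787-74998185) was the only Sm gene with H3K9me3, over 3.45% of its length. The U1 particle has its own proteins A (Snrpa) and C (Snrpc), and the U2 particle has A′ (Snrpa1) and B″ (Snrpb2). All 4 of these genes carried H3K36me3. Covered shares were 83.9% for Snrpa, 76.7% for Snrpc and 68.6% for Snrpa1, against 12.2% for Snrpb2 (chr2:142888775-142898589), which held 2 regions of 600 bp and an H3K9me3 region. The proteins A′ and B″ bind the U2 RNA as a pair, and in covered share their genes differed by this much.

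SF3a and SF3b make up the core of the U2 particle at the branch point. All 3 SF3a genes carried H3K36me3 and 0 carried H3K9me3, with 92.8% covered in Sf3a1, 82.0% in Sf3a3 and 69.4% in Sf3a2. In Sf3a1 (chr11:4060353-4082544) the mark formed 1 unbroken region of 20600 bp that began 448 bp after the start. Among the 5 SF3b genes 4 carried H3K36me3. Sf3b3 (chr8:113334139-113370703), a scaffold subunit, had the highest covered share and the largest covered length of all members, 95.3% and 34862 bp, in a single region of 35000 bp that reached past the end of the gene. Sf3b2 (chr19:5273923-5295455), whose protein contacts SF3B4 and the RNA next to the branch site, was covered over 86.4%. Sf3b1 (chr1:55042013-55084322), the branch point subunit that is recurrently mutated in myelodysplasia, was covered over 62.9% of 42.3 kb, a total of 26600 bp in 11 regions. Sf3b5 (chr10:12728256-12728988) had neither mark. It is a single exon of 733 bp, the shortest member, and the nearest H3K36me3 region lay 170 kb away at Ltv1.

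The Prp factors act mainly in the tri-snRNP and at its activation. H3K36me3 was listed in 12 of 13, with a median covered share of 59.6%, and H3K9me3 in Prpf4, Prpf6 and Prpf38b. Prpf8 (chr11:75300279-75322951), the large U5 protein at the heart of the spliceosome, was covered over 91.5% of 22.7 kb, 20751 bp in 3 regions. Prpf6 (chr2:181326573-181390365), the bridge between U5 and U4/U6, had the most regions of any member, 13, over 26.3% of 63.8 kb. Prpf18 (chr2:4543104-4573159), which acts in the second catalytic step, had 7 regions over 20.0% of 30.1 kb, and Prpf39 (chr12:66137320-66164373), a U1-associated factor, had 5 over 21.3% of 27.1 kb.

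The mark was cut into few or many pieces. A single H3K36me3 region was found in 20 members, 2 to 4 in 22 and 5 or more in 15. The 191 regions that touched members had a median width of 1600 bp, 42 had the minimum width of 600 bp, and the widest was that of Sf3b3. Only 18 of them also touched another annotated gene, and 8 another protein-coding gene. Of the 40 members with no overlapping gene, 37 carried the mark.

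Along the gene, H3K36me3 rose from the start to a plateau that the splicing genes reached early. In carriers of 5 to 50 kb, the mean covered share of the first of 10 equal parts of the gene was 7.69% in 52 members and 3.93% in all 5067 carriers. It was 51.3% against 29.3% in part 3, 75.3% against 42.5% in part 5, and 63.1% against 47.7% in part 10. The highest mean was in part 7 for the members (77.3%) and in part 9 for all carriers (53.6%). The mark covered more of the last than of the first 50% of the gene in 46 of the 57 carriers (80.7%), as in all carriers (80.9%). The median difference was 26.9 percentage points over these 57 and 18.4 over all carriers. In carriers of 5 to 50 kb it was 27.0 in the members and 21.4 in all genes. The mark reached the annotated end in 29 of 57 (50.9%), against 30.9% of all carriers. Bins beyond the end of a gene were not kept unless another gene lay there.

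**Figure D3:**
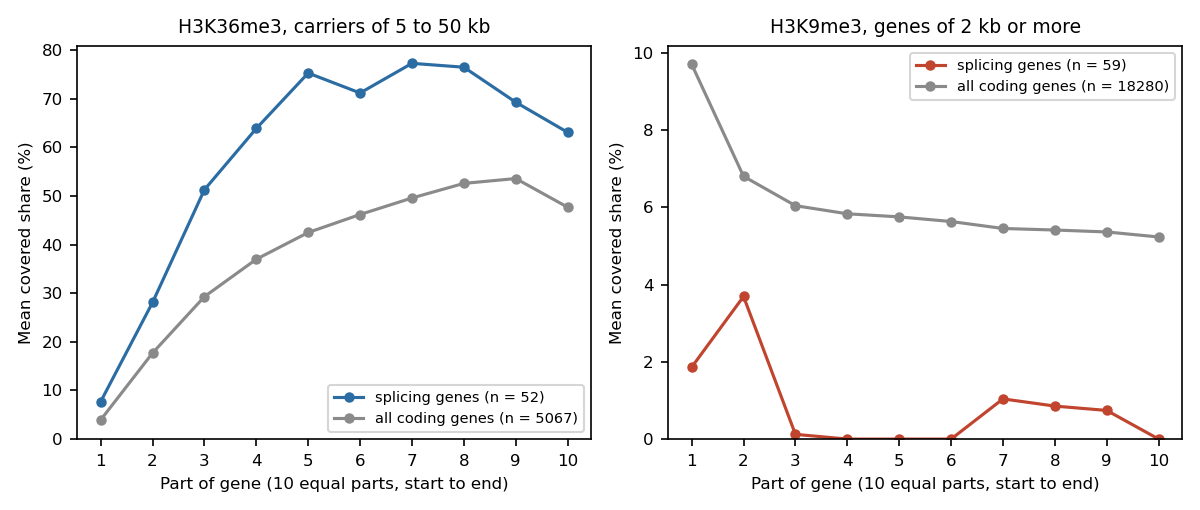
Mean share (%) of each of 10 equal parts of the gene, from start to end, that lay in the H3K36me3 list (left, carriers of 5 to 50 kb) and in the H3K9me3 list (right, all genes of 2 kb or more), for splicing genes (coloured) and all autosomal protein-coding genes (grey). The lines join means over genes, without an error because genes are not replicates. H3K36me3 in the members peaks at 77.3% in part 7, and their H3K9me3 is at 0 in parts 4 to 6 and 10.

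The first H3K36me3 base lay a median of 2293 bp after the gene start in the 57 carriers (order-statistic interval 1629 to 3441, quartiles 1330 and 5881), against 5102 bp over all carriers. In carriers of 5 to 50 kb the medians were 2425 bp in 52 members (1851 to 3504) and 4476 bp in 5067 genes (4323 to 4667). The earliest were Hnrnpa1 at 56 bp, Srsf2 at 208 bp and Sf3a1 at 448 bp, and the latest was Hnrnpf at 17843 bp. A region included the gene start itself in 0 members, and in 1.51% of all carriers, so that less than 1 such member would be found at that rate. H3K36me3 fell within 1 kb of the start in 8 members (13.3%), against 2.73% of all genes. Of the 56 carriers with several exons, the first marked base was in intron 1 in 19 (33.9%), in intron 2 in 17 (30.4%) and further on in 15 (26.8%). For all such carriers these shares were 25.5%, 24.5% and 40.8%. The plot of onset against gene length shows early and late onsets side by side among long genes, with 1703 bp in Sf3b3 (36.6 kb) and 17843 bp in Hnrnpf (25.3 kb). The onset drawn for Prpf6, at 4228 bp, is a 600 bp region that also touches Samd10 and lies outside the longest coding transcript of Prpf6, whose next region begins 18428 bp after the annotated gene start.

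**Figure D4:**
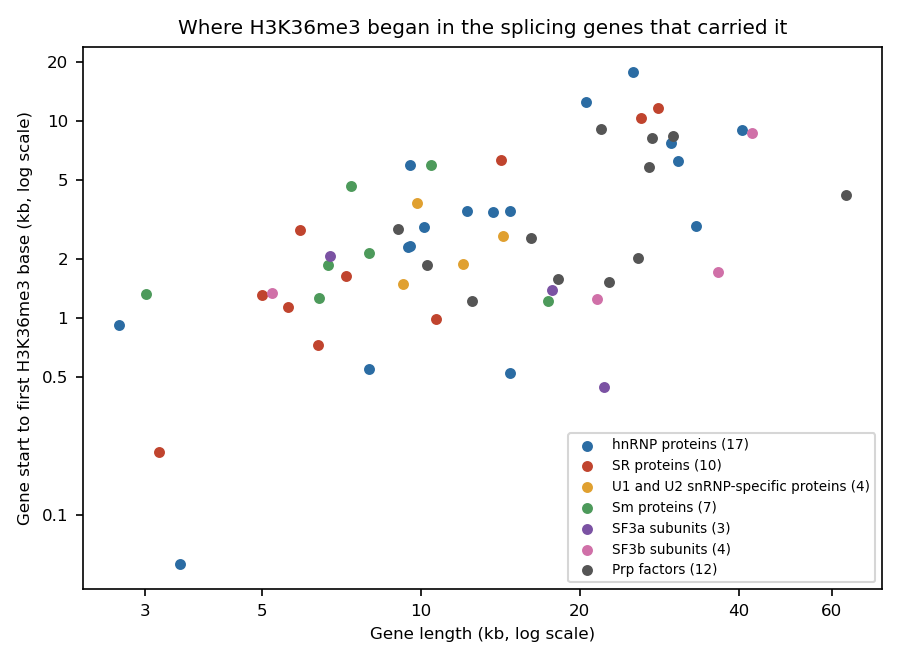
Distance from the gene start to the first H3K36me3 base (kb, log scale) against gene length (kb, log scale) for the 57 splicing genes with the mark. Each point is 1 gene, coloured by family with the number of carriers in the key. Distances run from 56 bp in Hnrnpa1 to 17843 bp in Hnrnpf.

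Exons were marked more often than introns. Of the 1782 bins of 200 bp that touched an exon of a member, 1105 (62.0%) were in H3K36me3, against 1487 of 3402 intronic bins (43.7%), a ratio of 1.42. Over the 57 members with the mark the ratio was 1.37 (65.7% against 48.1%). Over all carriers in the genome it was 3.06 (41.2% against 13.4%), and these ratios are not comparable, since the higher coverage of introns in the members limits how large their ratio can be. The members are rich in exons, which took up 34.4% of their bins against 11.8% over all genes. Neighbouring bins share regions at least 600 bp wide, so the effective number of observations is smaller than the number of bins.

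Many splicing genes contain alternative exons with a premature stop codon, which send the transcript to nonsense-mediated decay (NMD) and let the protein limit its own level. In the annotation, 15 members had an NMD transcript, and 8 of them had in total 12 internal exons that no protein-coding transcript uses, 2 of which overlap each other. H3K36me3 covered 9 of these exons completely and 3 not at all, and 0 were in H3K9me3. For reference, 62.0% of the 200 bp bins that touch any exon of the members were in H3K36me3 and 0.505% in H3K9me3, a count of bins and not of whole exons. The 3 outside the mark were the 2 overlapping exons of Hnrnpd and 1 of the 3 exons of Hnrnpu. The sequences below show where the reading frame ends in the 5 exons whose stop codon follows at least 12 bases of coding sequence. Each is read 5′ to 3′ on the gene's strand of NCBIM37, from the first base of the exon to the stop codon that the annotation gives, with the stop in capitals.
Srsf3 NMD exon: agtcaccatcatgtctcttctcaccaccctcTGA
Hnrnpl NMD exon: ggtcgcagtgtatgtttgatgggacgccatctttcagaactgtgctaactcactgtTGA
Prpf3 NMD exon: gagttccaggaagcgctcgcccctggcTGA
Snrpa NMD exon: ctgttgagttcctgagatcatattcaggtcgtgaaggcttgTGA
Hnrnpu NMD exon: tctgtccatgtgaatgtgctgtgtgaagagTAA
The Srsf3 exon (chr17:29176399-29176854) is 456 bp long, lies 6781 bp after the gene start and is all in H3K36me3. So are the exons of Hnrnpl (chr7:29602354-29602423), Prpf3 (chr3:95653618-95653713) and Snrpa (chr7:27979101-27979223), of 70, 96 and 123 bp. The Hnrnpu exon shown (chr1:180255374-180255444), of 71 bp, falls in a gap of the list although 82.8% of that gene was covered. Whether any of these exons was used in the cells was not analysed here.

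The 9 H3K9me3 regions in members were short, from 600 to 2000 bp, and 6 had the minimum width. Together they came to 7400 bp, against 515340 bp of H3K36me3. Of these 7400 bp, 4000 bp (54.1%) were also in the H3K36me3 list. That is close to the 50.3% of the pooled sequence of all members that lay in H3K36me3. As each list joins WT and G34R cells, a base in both lists need not have carried both marks in the same cells. The regions touched the first of the 10 parts of the gene in 5 of the 59 members of 2 kb or more (8.47%). Among all 18280 genes of that length the share was 24.1%, and the first part was also the one touched most often. The map of both marks in the members with H3K9me3 shows the remaining regions further on.

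**Figure D5:**
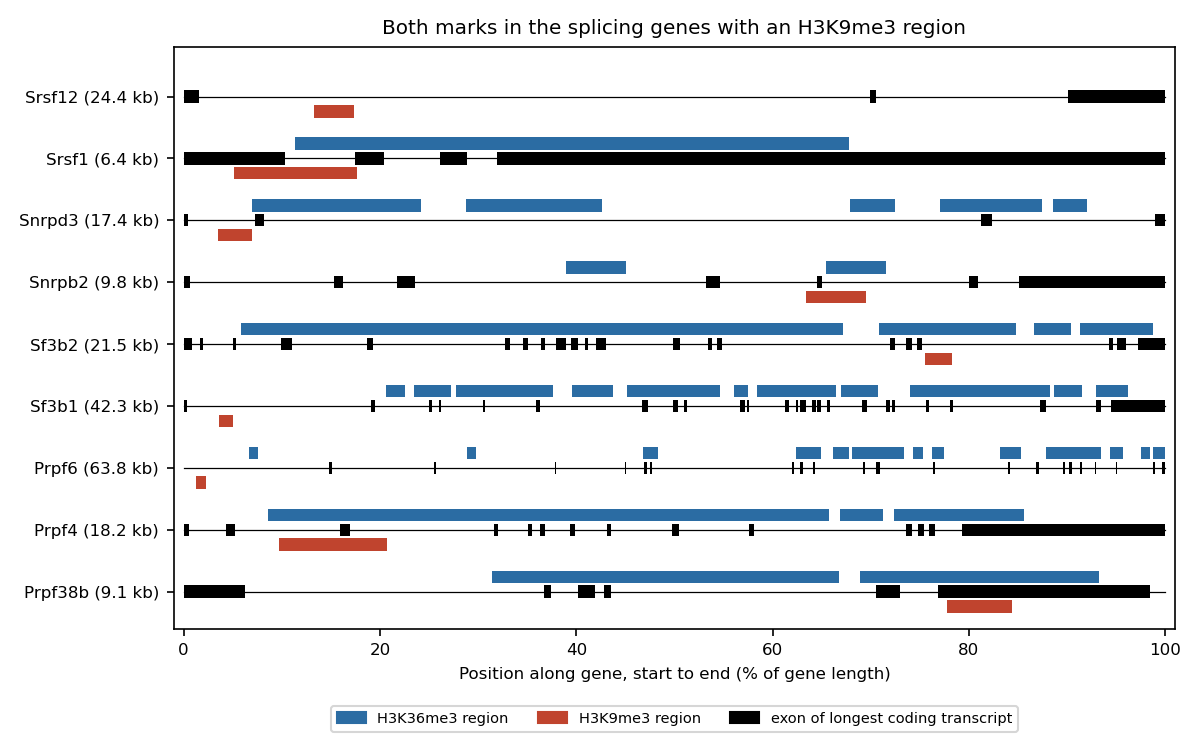
Positions of H3K36me3 regions (blue, above the line), H3K9me3 regions (red, below) and exons of the longest coding transcript (black) in the 9 splicing genes with an H3K9me3 region, drawn from gene start to gene end as a percentage of gene length. Srsf12 has no blue bar, and in Prpf4, Prpf38b and Sf3b2 the red bar lies wholly under a blue one.

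In 3 genes the H3K9me3 region lay wholly inside an H3K36me3 region. That of Prpf4 (chr4:62071601-62073600), a U4/U6 protein, was the widest at 2000 bp. Its centre lay in intron 2, and it took in 187 bp of coding exon. That of Prpf38b (chr3:108707001-108707600) was the only one made up of coding sequence alone, 600 bp of its last exon, exon 6. That of Sf3b2 (chr19:5278601-5279200) was in intron 18. The overlap was partial in Srsf1 and in Snrpb2. The Snrpb2 region (chr2:142895001-142895600) was centred in intron 5, took in 51 bp of coding exon and shared 400 bp with H3K36me3. In Snrpd3 the H3K9me3 region (chr10:74981401-74982000), in intron 1 from 614 to 1213 bp after the start, ended at the base before H3K36me3 began, at 1214 bp.

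In the other 3 genes the H3K9me3 region neither overlapped nor adjoined H3K36me3. The Sf3b1 region (chr1:55082201-55082800) lay in intron 1, 1522 bp after the start and 6600 bp from the nearest H3K36me3. The Srsf12 region (chr4:33299201-33300200), 1000 bp wide, was in intron 1 as well, in a gene with no H3K36me3 region. In Prpf6 the region (chr2:181327401-181328000) fell within the annotated gene but outside its longest coding transcript, in the overlapping gene Znf512b, and with the bounds of that transcript 8 members in place of 9 carry H3K9me3.

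The H3K9me3 sequences differed in their CG content. The 200 bp bin with the most CG in each region, free of untranslated sequence, is shown for 3 genes beside that of Srsf1, to set the coding exon of Prpf38b against the introns of Sf3b1 and Srsf12. Sequences are 5′ to 3′ on the gene's strand of NCBIM37, with each CG in capitals, from chr3:108707401-108707600 (minus strand), chr1:55082401-55082600 (minus strand) and chr4:33299601-33299800 (plus strand).
Prpf38b H3K9me3 bin: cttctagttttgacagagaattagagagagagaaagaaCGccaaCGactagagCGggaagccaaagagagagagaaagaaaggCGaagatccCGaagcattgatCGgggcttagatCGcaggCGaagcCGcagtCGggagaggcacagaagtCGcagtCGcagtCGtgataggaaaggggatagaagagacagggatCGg
Sf3b1 H3K9me3 bin: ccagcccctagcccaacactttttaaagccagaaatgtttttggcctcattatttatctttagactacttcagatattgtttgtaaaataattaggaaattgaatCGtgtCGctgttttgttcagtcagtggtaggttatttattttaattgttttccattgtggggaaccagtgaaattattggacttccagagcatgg
Srsf12 H3K9me3 bin: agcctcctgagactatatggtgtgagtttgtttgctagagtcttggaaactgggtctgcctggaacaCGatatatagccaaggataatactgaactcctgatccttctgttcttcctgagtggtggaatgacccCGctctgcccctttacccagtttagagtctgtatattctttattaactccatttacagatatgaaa
The Prpf38b bin holds 14 CG. The Sf3b1 and Srsf12 bins hold 2 each. Over the whole regions the ratio of observed to expected CG was 0.760 in Prpf38b, 0.129 in Sf3b1 and 0.114 in Srsf12, against 0.839 in Prpf6 and 0.301 in Prpf4. The list thus took in both CG-rich and CG-poor sequence of these genes.

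Base composition and repetition of sequence moved with H3K36me3 in the members, and their part in it was not tested. Bins of 40 to 50% G+C were marked in 57.1% of cases, those of 50 to 60% in 65.6%, those under 40% in 40.6%, and those of 60% or more in 19.5% (47 of 241). These shares pool the bins of all members. Within single genes, marked sequence was lower in G+C than unmarked sequence in most carriers and higher in a minority. Before the gene start, the 250 bases of each member had a median G+C content of 57.2% and a CG ratio of 0.835, against 54.4% and 0.506 over all genes. They were CG-rich, with at least 55% G+C and a ratio of at least 0.6, in 32 members (53.3%, 40.9 to 65.4), against 34% of all genes. For repetition, the central 50 bases of each bin were matched to the whole assembly. Bins with 1 copy were marked in 50.8% of 4983 cases, those with 2 to 5 copies in 37.1% of 105, and those with more copies in 22.9% of 96. Reads with over 5 alignments were left out by the authors. Splicing factor genes have many processed pseudogenes, but whether a copy lay in one was not examined. Bins with copies made up 38.5% of the bins of Hnrnpa3, 31.6% of Hnrnpa1, 18.1% of Srsf10, 14.8% of Sf3b4 and 10.4% of Hnrnpc. No other member was above 10%. In the same order, 20 of 20, 6 of 6, 13 of 13, 3 of 4 and 3 of 16 of the bins with copies touched an exon. The H3K36me3 covered shares of these genes were 27.6%, 92.7%, 16.9%, 62.8% and 47.5%, again in that order.

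Splicing genes outside the rule also carried H3K36me3 in most cases. Of 133 symbols in 7 lists, 127 matched an autosomal protein-coding gene. H3K36me3 was listed in 115 of them (90.6%, 84.2 to 94.5), with a median covered share of 56.2%, and H3K9me3 in 22 (17.3%). Over their pooled length 26.8% was covered, against 50.3% in the members, and H3K36me3 lay within 1 kb of the start in 4.72% (2.18 to 9.92), against 13.3% of the members (6.91 to 24.2). All 12 spliceosomal helicases carried H3K36me3, with a median of 76.8%, and so did all 17 SR kinases and SR-related proteins, with 69.6%. Carriage was 23 of 25 for the U1, U2 and U5 associated proteins (median 60.8%), 18 of 19 for the Prp19 complex and catalytic step proteins (61.2%), 12 of 14 for the exon junction complex (43.7%) and 8 of 9 for the Sm-like proteins (29.4%). The other RNA-binding regulators of splicing stood lowest, with 25 of 31 carriers and a median of 17.5%. Their genes were also the longest, with a median of 32848 bp against 5505 to 21553 bp in the other lists. The part of gene length in this was not tested. The 6 without H3K36me3 in that list were Ptbp2, Mbnl1, Celf2, Qk, Nova1 and Nova2, named after their values were seen. The annotation entry matched to Qk is only 285 bp long, less than the narrowest region, so it does not speak for the whole Qk gene. Nova1, Nova2 and Ptbp2 are best known from neurons, and whether this bears on their marks was not tested. H3K9me3 regions were present in Mbnl1, Celf2 and Nova2, over 0.383%, 0.849% and 20.3% of their length. They were not listed in Ptbp2, Qk and Nova1. Of all genes of 20 kb or more, a class that holds each of these genes but Qk, 61.6% carried H3K9me3.

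Genes of other housekeeping machinery carried H3K36me3 at shares close to that of the splicing genes. H3K36me3 was listed in 71 of 76 cytosolic ribosomal protein genes (93.4%, 85.5 to 97.2) and in 41 of 44 DNA replication genes (93.2%, 81.8 to 97.7), intervals that include the 95% of the splicing genes. The median covered share was 75.8% (67.8 to 80) in the ribosomal protein genes and 59.5% (41.1 to 71.3) in the replication genes. The ribosomal protein genes are short, with a median of 3400 bp against 13114 bp, and 65.8% of them had H3K36me3 within 1 kb of the start, against 9.09% of the replication genes and 13.3% of the splicing genes. Among the 5 splicing genes under 5 kb it was 3. H3K9me3 was listed in 11.8% of the ribosomal protein genes (6.36 to 21.0) and in 31.8% of the replication genes (20.0 to 46.6). The 15.0% of the splicing genes falls inside the first of these intervals and below the second.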

How the data were processed

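ChIP-seq libraries of H3K9me3 and H3K36me3 from WT and G34R ES cells, 4 in all with 1 per group, were used as 1 region list per mark. Per the methods and the submitters' processing notes, the authors aligned reads to mm9 with Bowtie 1.0.0, allowing up to 5 alignments, and removed PCR duplicates. They counted reads in 200 bp bins in SeqMonk, scaled by total reads and matched the distributions of WT and G34R. Bins in UCSC genes above a high percentile of signal coverage in either cell type were merged with BedTools 2.20.1, and extreme regions were dropped. The deposited columns hold chromosome, start and end. The methods state that merged regions over 500 bp were excluded, but every deposited region is at least 600 bp wide, so the limit was taken as a minimum width.

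Coordinates are 1-based on NCBIM37, equivalent to mm9: the last region on chromosome 13 ends at 120284312, the length of that chromosome. Genes, exons and transcripts are those of GENCODE vM1. A gene carried a mark if a region overlapped it by 1 bp or more. The start is that of the annotated gene on its strand. Exonic bins touch an exon of any transcript. Copies are exact matches on both strands. Python 3.11.15, numpy 2.4.6, scipy 1.17.1 and matplotlib 3.10.9 were used, and the interval functions were tested on simulated data.

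No test between groups was possible, so shares carry 95% Wilson intervals and medians carry order-statistic intervals. The members and lists were chosen with earlier results of these data known. The comparison with ribosomal protein and replication genes, the copies, the base composition and the NMD exons were added after the region lists were examined. Genes named are all members with H3K9me3 or with neither mark, the 8 highest and 8 lowest non-zero H3K36me3 covered shares, the 5 largest covered lengths and the 3 earliest onsets. Other members appear only as complete families or complete counts, or are said to have been chosen by value. An item under this rule is not reported here. The 6 listed symbols that did not match were Lsm8, Bat1a, Alyref, Rbm10, Ptbp3 and Rbm3. Alternatives changed the overlap, region width, joining, gene bounds, start window and member set.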

Additional observations from a re-analysis of the deposited data

How the results depend on the processing

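Of 44 alternatives to the 8 summary values, 36 left the value within its interval and 8 moved it. Keeping only regions that touch 1 gene lowered H3K36me3 carriage to 83.3% and H3K9me3 at the gene start to 1.67%. Keeping only regions of at least 1 kb lowered H3K9me3 carriage to 3.33% (Prpf4 and Srsf12), both marks to 1.67% and H3K9me3 at the start to 0%. A start window of 500 bp gave 1.67%. The ratio of exonic to intronic H3K36me3 bins was 1.28 with neighbours within 2 kb joined and 1.36 in members with no overlapping gene. These alternatives kept fewer or wider regions, fewer genes or a narrower window, and what caused each shift was not tested. The H3K9me3 counts rest on 9 regions, of which 6 are at the minimum width. Each list joins 1 WT and 1 G34R library without read values, so neither depth nor spread between cultures could be examined. No paired analysis was possible because each group holds 1 library.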
